A study of Mus musculus with 96 samples.

Results

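RO-3306 cells high in Ddit3 were compared with RO-3306 cells low in it, among single cells of C10, a mouse lung line labelled as alveolar type II epithelial. The series holds 96 libraries, each from 1 cell: 48 from untreated control cells and 48 from cells given RO-3306, known as a blocker of the mitotic kinase CDK1, at a labelled 10 nM for 36 h. All cells were grown in the same serum-containing RPMI medium, sorted singly with a CellenONE dispenser and processed by SMART-seq v4 for single reads of 150 nt. A floor of 50000 counts and 1000 detected genes per library left 37 of the 48 treated cells. These cells were ranked by Ddit3 level in counts per 1000000 (CPM). The 12 highest (Ddit3-high) were set against the 12 lowest (Ddit3-low), and 13 cells lay between. The sides were therefore chosen by Ddit3 CPM, and Ddit3 is described below but left out of every result. The labels name no replicate cultures and cells are not replicates, so nothing below has been checked against replicates and no p-value is given.

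Ddit3 encodes CHOP, a transcription factor of the C/EBP family. It is switched on late in the integrated stress response, in which kinases that sense amino acid shortage, unfolded protein in the endoplasmic reticulum, heme lack or viral RNA phosphorylate eIF2alpha. General translation then slows while Atf4 is translated, and ATF4 drives genes for amino acid supply, tRNA charging and further regulators, Ddit3 among them. CHOP itself is known for promoting cell death under lasting stress, and it forms dimers with other C/EBP and ATF proteins.

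ATF4 and CHOP dimers with C/EBP proteins are known to bind a C/EBP-ATF composite element, searched here as TGATGNAA on both strands of the RefSeq promoter windows (GRCm38.p6, 250 bases before to 50 after each start). Of 32851 windows of all genes, 3.97% held it. It was found in 5 of 16 windows of the integrated stress response factors and in 4 of 19 windows of the amino acid genes. The Ddit3 window did not hold these letters, and bases outside the window were not searched. The stretches below come from genes whose values are given further on, 5′ to 3′ on the gene's strand, with the element in capitals. They lie at chr1:191183426-191183453 (minus strand) for Atf3, chr2:119351039-119351066 (plus) for Chac1, chr6:7693215-7693242 (minus) for Asns and chr3:50443662-50443689 (minus) for Slc7a11.
Atf3: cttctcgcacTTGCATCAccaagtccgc
Chac1: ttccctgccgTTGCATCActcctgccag
Asns: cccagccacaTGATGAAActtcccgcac
Slc7a11: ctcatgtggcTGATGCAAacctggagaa

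Ddit3 varied widely among the treated cells (gene span chr10:127126662-127132160 on the plus strand, GRCm39, per the file headers' assembly). In Ddit3-high cells it lay between 760 and 1664 CPM, with a median of 1044. In Ddit3-low cells it lay between 0 and 373 CPM, with a median of 228. The last cell inside the high side had 760 CPM and the first outside it had 632. The first cell inside the low side had 373 CPM and the last outside it had 425. The 1 cell with no Ddit3 count, A11, had 515218 counts in all, which allows up to 5.82 CPM at 3 counts. Among 29 kept control cells, 17 had a Ddit3 count, the median was 30.7 CPM and the highest cell reached 747 CPM. All 12 Ddit3-high cells were above the highest control cell, and 11 of 12 Ddit3-low cells were above the control median. The Ddit3 span overlaps Mbd6 by 77 bases and Mars1 by 71, and its counts were fractional, from reads placed at several sites, in 32.8% of libraries with a count.

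**Figure D1:**
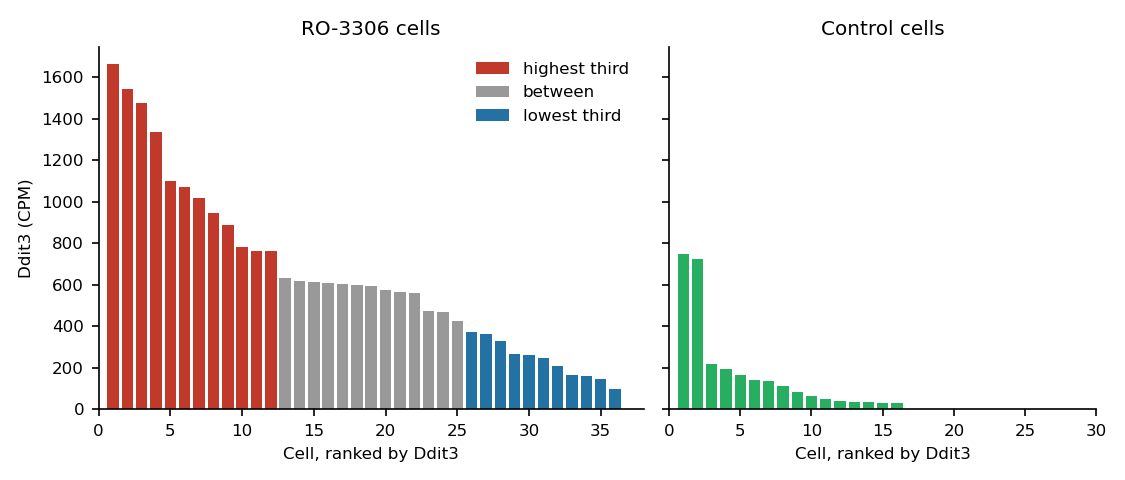
Ddit3 CPM (vertical axis) in each kept cell, ranked within its group (horizontal axis): RO-3306 cells on the left, coloured by side, and control cells on the right. The 12 Ddit3-high cells sit between 760 and 1664 CPM, and the 12 Ddit3-low cells between 0 and 373. The order is the one that chose the sides.

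Ddit3-high cells were shallower and held fewer genes. Their median total was 1401180 counts (295005 to 4441443), against 2996960 (475882 to 4998205) in Ddit3-low cells. The high cell had the larger total in 36.1% of the 144 pairs of 1 cell from each side, a measure called the pair share here, for which 50% is an even split. At full depth the medians were 5898.5 genes (1961 to 7913) and 6763 genes (2894 to 9148). With each cell thinned to 639000 counts, which left out 1 high and 2 low cells, the medians were 5519 and 6316.5 genes and the pair share was 20%. Fewer detected genes in the high cells were thus also seen at equal depth. The ranges overlapped, and across the 34 cells deep enough the Spearman rho of genes with Ddit3 CPM was -0.46.

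Genes with short annotated transcripts took more of the counts in Ddit3-high cells. The count-weighted geometric mean mRNA length per cell was 1245 nt at the median of the high side (1170 to 1343) and 1337 nt at that of the low side (1263 to 1725), with a pair share of 12.5%. Each gene's length is the median over its annotated protein-coding transcripts, partial models not set apart, and may differ from that of its main mRNA. By this measure Ddit3 is itself short, at 600 nt. The corrections for mRNA length given below share this limit. Mitochondrial counts made up 4.93% at the median of the high cells and 4.15% at that of the low cells. In all, 3 cells stood apart by having fewer than 4000 genes: B3 (high, 3901 genes and 56.0% mitochondrial counts), C11 (high, 1961 genes) and A11 (low, 2894 genes, 18.1% mitochondrial counts and the longest mean mRNA length). Each title holds 1 of the letters A to D, which the labels do not explain. The high side had 3, 5, 3 and 1 cells of sets A, B, C and D, and the low side had 6, 2, 2 and 2. The part of depth, mRNA length and set in the gene differences was not tested beyond the values given beside them.

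**Figure D2:**
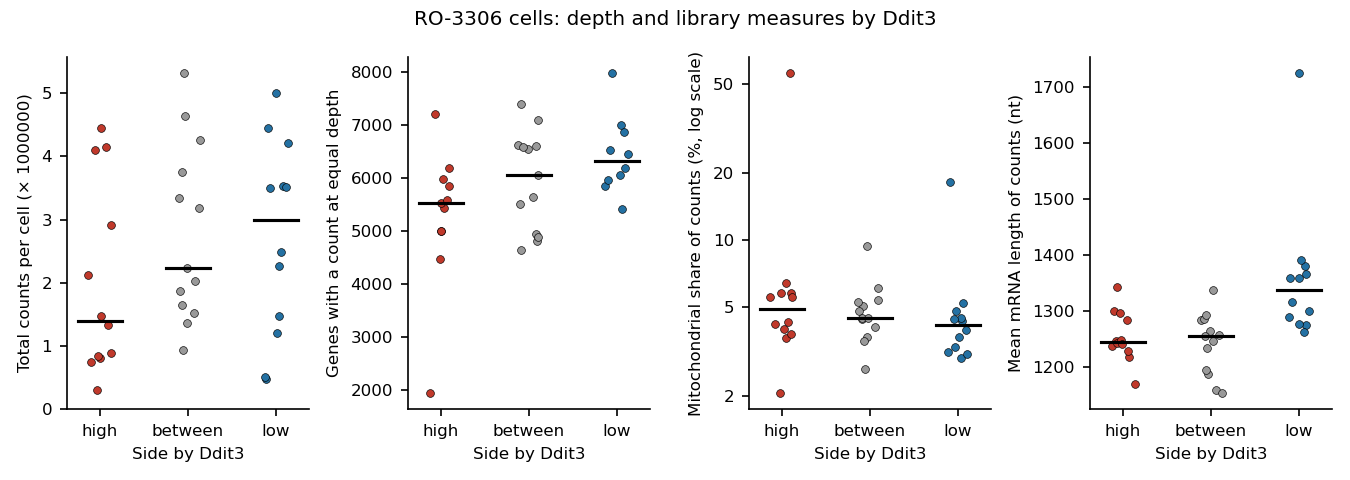
Total counts (in units of 1000000), genes with a count after thinning to 639000 counts, mitochondrial share (percent, log scale) and mean mRNA length (nt) for each kept RO-3306 cell, by side. Points are cells and bars are medians. High cells have lower median totals (1401180 against 2996960), fewer genes at equal depth (5519 against 6316.5) and a shorter mean length (1245 against 1337 nt).

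Far more genes were lower than higher in Ddit3-high cells. Counts were summed over the cells of a side and given as pooled CPM, and the ratio is log2 of high over low with 1 CPM added to both. A gene was called when that ratio was at least 1 in size for pooled CPM and for the mean of per-cell CPM, and the pair share was at least 75% or at most 25%. Of 8794 genes that averaged 5 CPM or more, 16 (0.182%) were called higher and 325 (3.7%) lower. The median log2 ratio over all of them was -0.19 (quartiles -1.15 and 0.40), and the median pair share was 44.8%. After thinning before pooling, 24 were called higher and 437 lower, of which 9 and 240 were among the first calls. After correction for mRNA length the counts were 20 and 267, sharing 15 and 267. Leaving out cells A11, B3 and C11 gave 43 and 333, sharing 13 and 249, and leaving out C11 alone gave 33 higher. The counts also moved widely with the choice of cells: 18 cells a side gave 4 and 90, leaving out set A gave 51 and 859, and leaving out set C gave 81 and 417.

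The sign was the same in all 4 lettered sets for 11 of the 16 genes called higher and for 206 of the 325 called lower. Among all genes tested this held for 316 of 3664 with a ratio above 0 and for 749 of 5130 below 0. The calls were made from these same cells, which by itself raises agreement among their sets, so it is no separate check. The same holds where signs in sets are given for a called gene below. Set D held only 1 high and 2 low cells. Scaling by TMM or DESeq2 factors, in place of total counts, moved the median of all genes to 0.01 and 0.02, a shift of about 0.2 in log2, so smaller ratios have no settled sign. It gave 32 and 33 genes called higher and 260 and 257 lower.

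**Figure D3:**
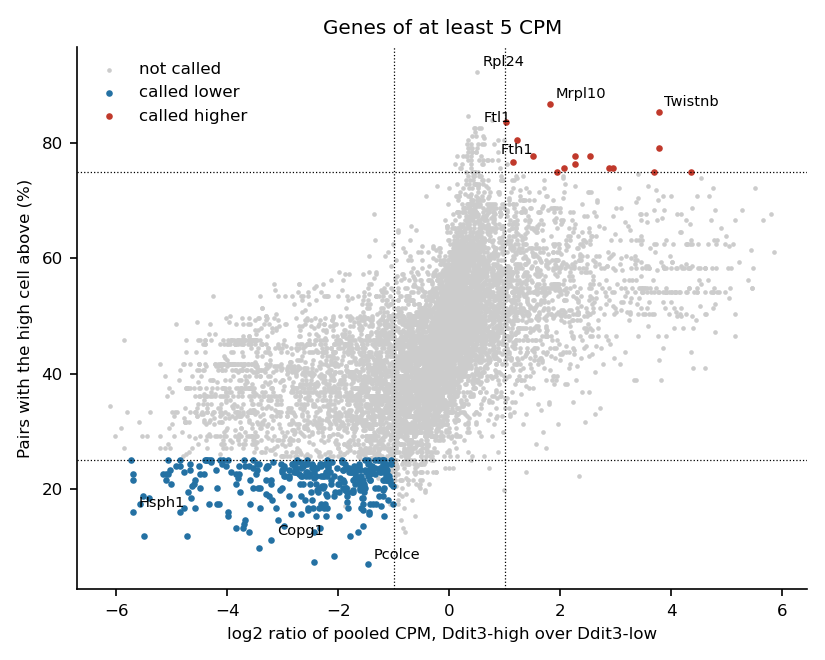
Each point is a gene of at least 5 CPM: log2 ratio of pooled CPM, Ddit3-high over Ddit3-low (horizontal), and the percent of 144 cell pairs in which the high cell was above (vertical). Dotted lines mark the limits of a call; 16 genes are called higher and 325 lower. Rpl24 had the highest pair share but a ratio of only 0.51.

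The listed factors of the integrated stress response gave no gene called higher beside Ddit3. Of the 14 listed factors 11 passed 5 CPM, and 0 were called higher and 1 lower. Of these 11 factors 3 had a ratio above 0 and 8 below, from -1.77 to 1.24, beside 5130 of 8794 genes tested below 0. Their median log2 ratio was -0.36, but it was 0.23 with 9 cells a side and 0.38 without set B, so it had no settled direction. Their summed level had a median of 2631 CPM (1148 to 4401) in high cells and 2663 CPM (93.2 to 5514) in low cells, a pair share of 45.1%. Its Spearman rho with Ddit3 over the 37 cells was 0.02.

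Atf4, the regulator at the head of the pathway, had 54.2 to 1601 CPM in high cells (median 1132) and 87.3 to 2405 in low cells (median 881). The sides overlapped over most of that range, and the log2 ratio was 0.34 with a pair share of 61.8%. Chac1, which breaks down glutathione, had 0 to 1308 CPM in high cells (median 180) and 0 to 294 in low cells (median 96.4), with a log2 ratio of 1.08. Its pair share of 64.9% was short of a call. Trib3, a pseudokinase that restrains ATF4 and CHOP, had medians of 222 CPM in high cells and 294 CPM in low cells and a log2 ratio of -0.03. Atf3, a further stress factor, had a count in 3 high and 6 low cells. Nupr1 and Vldlr had no count on either side.

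Cebpg, a C/EBP protein known as a partner of ATF4, was the 1 listed factor called, and it was lower. It had 0 to 216 CPM in high cells (median 12.9) and 0 to 344 CPM in low cells (median 73.9). A count was present in 7 of 12 high and 11 of 12 low cells. The log2 ratio was -1.72 and the pair share 24.0%. In set A the ratio was 1.09, against the direction of the other sets, without set B it was -0.68, short of a call, and 55.6% of its span overlaps other genes. Cebpb, another C/EBP factor, had a log2 ratio of -0.36 and a pair share of 36.8%.

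Genes for amino acid synthesis and transport gave no call. All 18 passed 5 CPM and 0 were called either way. Their median log2 ratio was 0.05, with signs on both sides of 0 among the alternatives. The summed median was 2707 CPM in high and 3068 CPM in low cells, with a pair share of 37.5%. Asns, asparagine synthetase, had 0 to 1105 CPM in high cells (median 369) and 3.88 to 1066 in low cells (median 314), so the sides covered the same range. Slc7a11, the cystine transporter, had pooled levels of 7.44 and 59.4 CPM, a log2 ratio of -2.84 and a pair share of 31.9%.

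Slc3a2, the shared heavy chain of several amino acid transporters, was the listed gene of lowest pair share, at 14.6%, and was picked for that after its values were seen. It had 0 to 553 CPM in high cells (median 315) and 227 to 1170 CPM in low cells (median 560). Its log2 ratio of -0.88 was short of a call. Of the 18 tRNA synthetases 0 were called, with a median log2 ratio of -0.08. Of the 10 genes for eIF2alpha, its kinases and its phosphatase 0 were called, with a median of -0.04. Eif2s1, which encodes eIF2alpha itself, had pooled levels of 348 and 338 CPM.

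**Figure D4:**
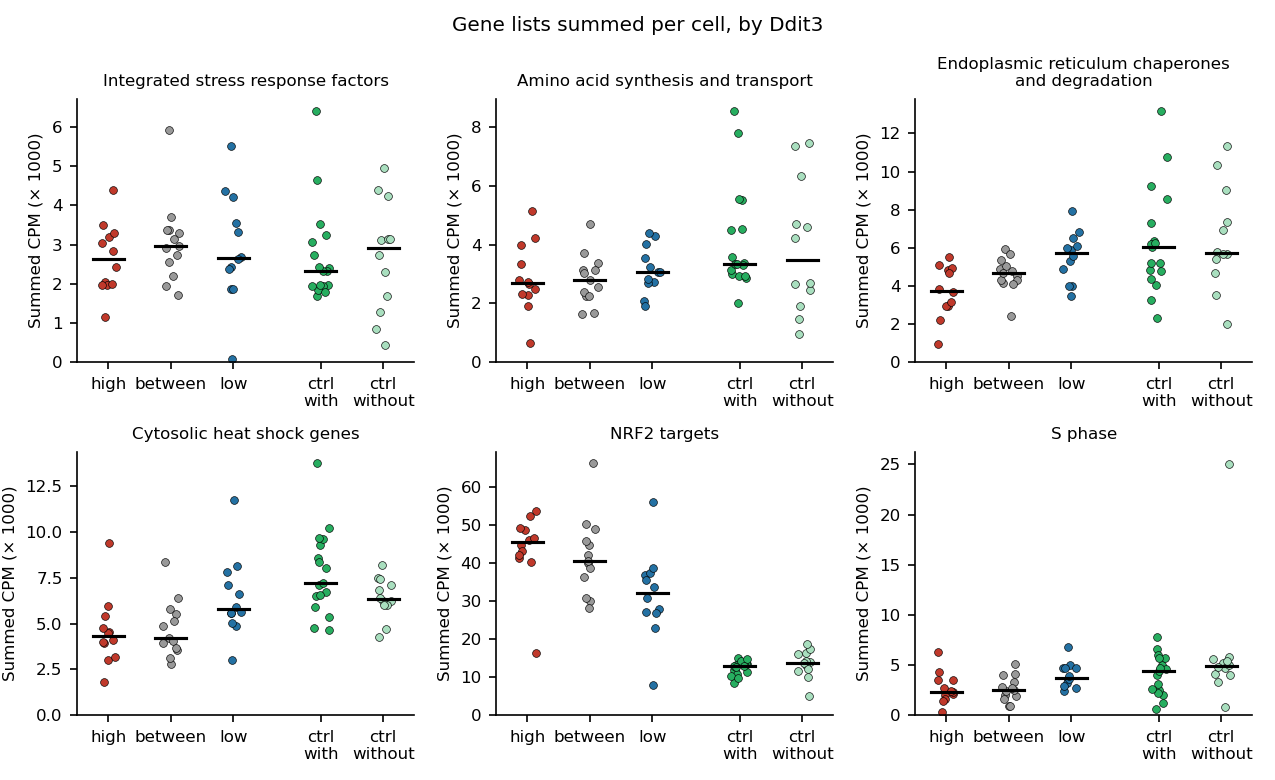
Summed CPM (in units of 1000) of 6 gene lists in each kept cell: RO-3306 cells by side, then control cells with and without a Ddit3 count. Points are cells and bars are medians. The integrated stress response sum has medians of 2631 and 2663 CPM, the endoplasmic reticulum sum is lower in high cells (3750 against 5715) and the NRF2 target sum is higher (45458 against 32256).

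Endoplasmic reticulum chaperones and degradation genes, which fold secreted proteins and clear those that misfold, were lower in Ddit3-high cells as a group. Their summed level had a median of 3750 CPM in high cells (944 to 5509), 4672 CPM in the cells between and 5715 CPM in low cells (3469 to 7926). The pair share was 14.6% and the rho with Ddit3 was -0.57 over 37 cells. Of 24 genes 23 passed 5 CPM, 18 of them had a ratio below 0, 0 were called higher and 2 lower (8.70%, against 3.7% of all genes tested, of which 5130 of 8794 were below 0). The median log2 ratio was -0.71 and -0.28 after correction for mRNA length. In sets A, B, C and D it was 0.07, -0.28, -0.69 and -0.84. The pair share of the sum stayed between 10.6% and 20% where the cells, their ranking or their depth changed. Other scalings, pseudocounts and CPM limits cannot move it, and it was not computed after length correction.

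Hspa5, the chaperone BiP and a standard mark of unfolded protein, was called lower. It had 0 to 70.1 CPM in high cells (median 12.4) and 0 to 112 CPM in low cells (median 46.9), a log2 ratio of -1.12 and a pair share of 21.5%. The ratio was below 0 in all 4 sets, and 81.0% of its span overlaps other genes. It was short of a call at -0.70 after length correction, -0.92 with DESeq2 factors, -0.94 without cell B9 and -0.47 with 9 cells a side. Atf6, a sensor of unfolded protein, had a count in 1 high and 7 low cells and a log2 ratio of -4.29. It was a low gene, at 0.0415 and 19.4 CPM, with ratios of -0.55, -0.28, -0.19 and -6.19 in sets A, B, C and D. Without cell D7 the ratio was -0.52. Hsp90b1, the chaperone GRP94, had medians of 169 and 369 CPM, with a log2 ratio of -0.98. Calr, calreticulin, had medians of 301 and 539 CPM, with a log2 ratio of -0.60. Dnajb9, a co-chaperone of BiP, went the other way at 43.6 and 8.47 CPM pooled, with a pair share of 68.1%, short of a call.

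Cytosolic heat shock genes were also lower as a sum, at a median of 4307 CPM in high cells (1806 to 9406) and 5775 CPM in low cells (2995 to 11770). The pair share was 19.4% and the rho with Ddit3 was -0.46. The pair share was 30.6% with cells ranked on thinned counts and 31.5% without set A. Of 10 tested genes 2 were called lower and 0 higher, beside 3.7% lower over all genes, with a median log2 ratio of -0.36 and 0.04 in set C. Hsph1, an HSP110 co-chaperone, had 0 to 12 CPM in high cells (median 0) and 0 to 1253 CPM in low cells (median 73.5). In 8 of 12 low cells it was above every high cell, and the pooled log2 ratio was -5.70. In set C the ratio was 0.11. Hspa4, of the same family, had pooled levels of 4.52 and 86.2 CPM and a ratio below 0 in all 4 sets. Hspa8, the constitutive HSC70, had a log2 ratio of -0.53 and was not called.

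NRF2 targets, the genes of the antioxidant and iron-storage response, were the list with the highest pair share, 84.7%. The summed level had a median of 45458 CPM in high cells, 40577 CPM in the cells between and 32256 CPM in low cells, and the rho with Ddit3 was 0.60. In the high side 11 of 12 cells had at least 40307 CPM, and the exception was B3 with 16448. In the low side 11 of 12 cells had at most 38703 CPM, and the exception was A10 with 56235. Of 21 tested genes 14 had a ratio above 0, with a median of 0.23, and 0 were called. The median was -0.089 in set A and 0.56, 0.30 and 0.39 in sets B, C and D. The sum was therefore carried by modest differences in abundant genes, mostly ferritin. Pooled over cells it was 45983 CPM in high and 32603 CPM in low cells. Ftl1 alone had 20618 and 14925 CPM, and Fth1 had 14290 and 8366 CPM, which is most of that difference. A sum without these genes was not computed.

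Ftl1, the ferritin light chain, had 7976 to 26675 CPM in high cells (median 19952) and 2153 to 22369 in low cells (median 14065). The log2 ratio was 0.47 and the pair share 82.6%. Fth1, the ferritin heavy chain, had 4454 to 20807 CPM in high cells (median 12702) and 757 to 19631 in low cells (median 7824), with a log2 ratio of 0.77 and a pair share of 77.1%. Both ratios were above 0 in all 4 sets, and both sides overlapped. Ferritin counts were fractional in 88.5% (Ftl1) and 53.6% (Fth1) of libraries with a count, so near-identical copies may share their reads. Of the other genes named so far, Atf4, Chac1, Cebpb, Asns, Slc7a11, Slc3a2, Eif2s1, Atf6, Hsp90b1, Calr, Dnajb9 and Hspa8 also had fractional counts in over 25% of libraries and are uncertain. Txn1, thioredoxin, had pooled levels of 1642 and 1239 CPM and a pair share of 75%. Slc7a11 and Srxn1, also NRF2 targets, had ratios of -2.84 and -0.93, below 0.

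Cell cycle genes were lower where they were called. Of 39 S-phase genes tested 5 were called lower (12.8%, against 3.7% of all genes) and 0 higher. Their median log2 ratio of -0.26 had no settled direction: it was -0.96, -0.10, -1.73 and 0.63 in sets A, B, C and D, and 0.03 after length correction. The S-phase sum had a median of 2335 CPM in high cells and 3721 CPM in low cells, a pair share of 19.4%, which was 27.2% with 18 cells a side. Pcna, the replication clamp, had a log2 ratio of 0.35 and a pair share of 52.1%, so the S-phase genes did not move as one.

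Of 55 G2/M genes tested 7 were called lower (12.7%, against 3.7% of all genes) and 0 higher, with a median of -0.34 and a pair share of 35.4% for their sum. In sets A, B, C and D the median was -1.21, -0.39, -0.78 and -0.18. Ckap2l, a spindle protein, had 0 to 207 CPM in high cells (median 0.471) and 0 to 364 CPM in low cells (median 216). Top2a, the topoisomerase of chromosome condensation, had medians of 1.70 and 42.8 CPM and a log2 ratio of -2.56. Plk1, a mitotic kinase, had a log2 ratio of -1.53 and 1.28 in set B. It was short of a call at -0.98 without cell C9, -0.13 without set C and -0.25 with 9 cells a side. The 2 most abundant G2/M genes were near even: Ube2c, a conjugating enzyme of mitotic exit, had a log2 ratio of 0.21, and Cks1b, a CDK subunit, had 0.26.

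Genes tied to cell death and its restraint gave few calls. Of 8 tested death genes of the BCL2 family and receptors 0 were called, with a median log2 ratio of -0.31. Bax, a pore former of the mitochondrial death pathway, had a ratio of 0.07, and Fas, a death receptor, had -0.85. Bcl2l1, which encodes the survival protein BCL-XL and was 1 of 2 survival genes tested, was called lower. It had 0 to 86.0 CPM in high cells (median 0) and 0 to 203 CPM in low cells (median 36.2), with a ratio of -2.44, below 0 in all 4 sets. Of 19 tested p53 targets 0 were called, with a median of -0.56, beside -0.19 for all genes tested. In sets A, B, C and D that median was -0.40, -0.71, -1.32 and -0.37, and it lay between -0.76 and -0.22 among alternatives. The p53 sum had medians of 2036 CPM in high and 3168 CPM in low cells and a pair share of 26.4%.

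**Figure D5:**
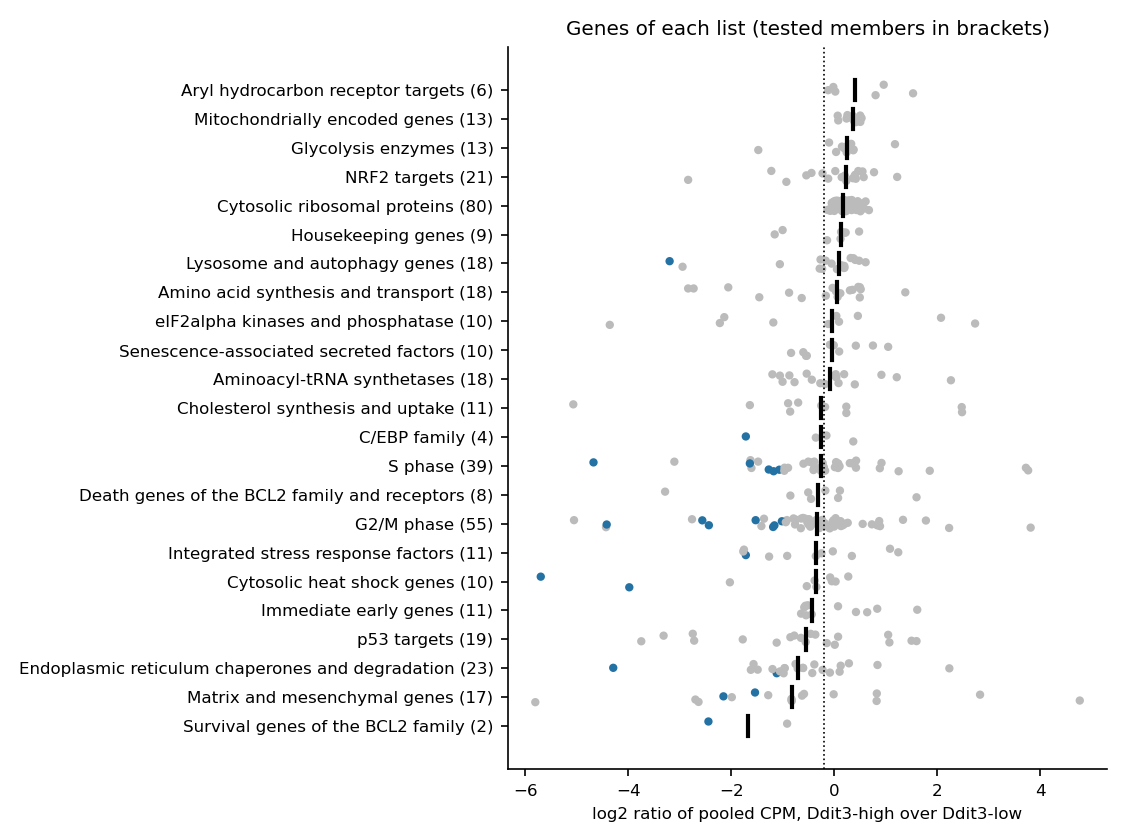
Log2 ratio of pooled CPM, Ddit3-high over Ddit3-low, for the tested genes of each list (points; blue, called lower) with the list's median (black bar). The dotted line is the median over all 8794 genes, -0.19. No listed gene is called higher. Lists with the lowest medians include matrix (-0.83, 17 genes) and endoplasmic reticulum genes (-0.71, 23 genes). The survival median of -1.68 rests on 2 tested genes and lay between -2.09 and 0.60 among alternatives.

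Matrix and mesenchymal genes had a median log2 ratio of -0.83, with 2 of 17 called lower (11.8%, against 3.7% of all genes). In sets A, B, C and D the median was -0.30, -0.01, -2.34 and 0, and after length correction it was -0.44. Cell A11 had a summed level of 25563 CPM, and the other low cells at most 10492. Col3a1, a fibrillar collagen, had 0 to 269 CPM in high cells (median 7.81) and 0 to 3316 CPM in low cells (median 123). Its log2 ratio was -2.15, and -0.93 after thinning, short of a call. Fn1, fibronectin, had medians of 14 and 243 CPM and a log2 ratio of -1.54, which was short of a call at -0.96 without cell A11 and -0.97 after length correction. Sparc, a collagen-binding protein, had medians of 975 and 2050 CPM and a pair share of 15.3%, but its ratio of -0.63 was short of a call. Some cell type markers were lower on the same side: fibroblast markers summed to 83.7 to 2020 CPM in high and 281 to 6298 CPM in low cells, and alveolar type I markers to 0 to 815 and 79.6 to 3335 CPM, most of the latter from Cav1. The fibroblast list shares Col1a1, Col1a2 and Col3a1 with the matrix list, so it is not a separate observation. The part of these markers in the matrix result was not tested.

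Defining markers of the labelled cell type were nearly absent from both sides. Of 9 alveolar type II markers 5, among them Sftpc, had no count, and the pooled sum was 12.1 CPM in high and 35.9 CPM in low cells. Epithelial markers summed to 2.20 and 0.182 CPM, and endothelial markers to 0.166 and 0.0980 CPM. Macrophage markers summed to 409 and 371 CPM, nearly all from Cd68, and 5 of 10 had no count.

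Of 80 cytosolic ribosomal protein genes tested 69 had a ratio above 0 and 0 were called. Their median of 0.16 was within the shift from scaling. The pair share of their sum was 75.7%, and in set A their median was -0.11. All 13 mitochondrially encoded genes had a ratio above 0, with a median of 0.36. That median was -0.19 in set D, 0.15 without cell B3 and -0.04 without set B. Medians were 0.24 for glycolysis, 0.10 for lysosome and autophagy, 0.13 for housekeeping, 0.41 for aryl hydrocarbon receptor, -0.25 for cholesterol, -0.44 for immediate early and -0.05 for senescence-associated secreted genes. Only the glycolysis median kept its sign under every alternative run. The others had no settled direction, such as immediate early genes at 0.53, 1.61, -1.04 and -0.34 in sets A, B, C and D. Of these 7 lists the 1 called gene was Wipi1, an autophagy protein, which was lower at 0.871 against 16.2 CPM.

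The 6 named genes called higher belong, by known role, to mitochondria, transcription, splicing, immune signalling and lipid synthesis. Mrpl10, a protein of the mitochondrial ribosome (chr11:96932408-96940039, plus strand), had 10.2 to 446 CPM in high cells (median 182) and 0 to 272 CPM in low cells (median 71.4). The log2 ratio was 1.81 and the pair share 86.8%, with a ratio above 0 in all 4 sets. It was 0.17 with the ranking split in 2 equal sides of 18 cells. Twistnb, a subunit of RNA polymerase I, had 0 to 438 CPM in high cells (median 49.9) and 0 to 23.1 CPM in low cells (median 0). In 8 of 12 high cells it was above every low cell, and the log2 ratio was 3.77. Sf3b6, of the spliceosome, had medians of 377 and 153 CPM and a log2 ratio of 1.02. It was -0.03 in set D and 0.77 without cell B5, short of a call.

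Dnajc19, of the mitochondrial import motor, had a log2 ratio of 1.51 and 52.8% of its span overlaps other genes. Ripk2, a kinase of innate immune signalling, had a count in 10 high and 4 low cells and a ratio of 2.07, but 0.56 with 9 cells a side. Hacd1, an enzyme of fatty acid elongation, had a ratio of 1.95. Mrpl10, Twistnb, Dnajc19 and Hacd1 had fractional counts in over 25% of libraries and are uncertain.

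The named genes called lower had pair shares from 6.94% up. Pcolce, which enhances procollagen cleavage (chr5:137603369-137609666, minus strand), had 6.78 to 174 CPM in high cells (median 95.7) and 75.3 to 732 CPM in low cells (median 272), and 10 of 12 low cells were above every high cell. The log2 ratio was -1.46, below 0 in all 4 sets. Copg1, a coat subunit of vesicles that return from the Golgi, had 0 to 40.3 CPM in high cells (median 6.60) and 0.333 to 356 CPM in low cells (median 127), again with 10 of 12 low cells above every high cell. Stt3a, the catalytic subunit of an oligosaccharyltransferase, had 0 to 312 CPM in high cells (median 41.4) and 23.1 to 731 in low cells (median 249). Sec61a2, of the translocon family, had a ratio of -1.55, yet 0.77 in set D and -0.47 without set B.

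Ckap4, a membrane protein of the endoplasmic reticulum, had medians of 8.72 and 161 CPM and a log2 ratio of -2.97. Actr1a, of the dynactin complex that moves vesicles, had medians of 13.8 and 103 CPM and a ratio of -2.33, but -0.61 with 18 cells a side. Ptcd3, of mitochondrial translation, had a count in 3 high and 10 low cells and a ratio of -5.50. Rpe, an enzyme of the pentose phosphate pathway, had a count in 3 high and 10 low cells and a ratio of -3.71. Actr1a, Ckap4, Ptcd3 and Rpe were below 0 in all 4 sets. Pcolce, Copg1, Stt3a and Ptcd3 had fractional counts in over 25% of libraries and are uncertain, as are Txn1, Srxn1, Pcna, Ckap2l, Ube2c, Cks1b, Bax, Fas, Bcl2l1, Fn1 and Sparc.

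Across all 37 kept treated cells, few genes tracked Ddit3 closely. Among 3337 genes of at least 50 CPM with a count in at least 50% of cells, the median rho with Ddit3 was -0.05, the highest 0.57 and the lowest -0.69. All share the library totals that scale them, and 3 genes were above 0.5 and 23 below -0.5. The 5 most like Ddit3 were Rpl24, a ribosomal protein (0.57), Ftl1 (0.53), Mrps24, of the mitochondrial ribosome (0.50), Grik3, annotated as a glutamate receptor (0.49), and Gabarap, of autophagosome formation (0.49). Rpl24 had 403 to 790 CPM in high cells (median 589) and 22.3 to 566 CPM in low cells (median 409), with a pair share of 92.4%. Gabarap had 469 to 2544 CPM in high cells (median 1656) and 0 to 1623 CPM in low cells (median 1057). Reads of Grik3 were fractional in 98.7% of libraries with a count and those of Rpl24 in 81.6%, so these levels may belong to copies elsewhere. Gabarap counts were fractional in 41.1% of them.

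Control cells, which the ranking did not use, were described by whether they had a Ddit3 count. The 17 with a Ddit3 count were set against the 12 without, a split that itself depends on depth. Those with a count held more genes at equal depth (pair share 84.0%), the reverse of the treated sides. Of the 16 genes called higher in treated cells, 12 were tested in control and 4 were higher there, by a ratio above 0 and a pair share above 50% (33.3%), against 50.1% of all genes tested in both. Of the 325 called lower, 321 were tested and 49 were lower in control cells with Ddit3 (15.3%, against 22.5%). The NRF2 sum had a pair share of 34.8% in control, the endoplasmic reticulum sum 47.1% and the integrated stress response sum 49.0%. The sum of eIF2alpha, its kinases and phosphatase had 76.5% and that of tRNA synthetases 71.6%. The median log2 ratio of the stress response factors was 0.34 there, beside 0.10 for all genes tested in control. It was 0.47 to 1.59 among alternatives, for which no median over all genes was computed. The difference between treated and control cells in these shares was not tested.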

How the data were processed

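Expected counts per gene were deposited by the authors for each library, with featureCounts 2.0.3 as the tool, per the file headers, which name whole gene spans of the GRCm39 RefSeq annotation and equal fractions for reads placed at several sites. STAR and FastQC are named in the submitters' processing notes, with no version. No strand option is recorded, so antisense and overlapping genes cannot be told apart, and reads without molecular identifiers include PCR copies. No doublet caller was run on singly sorted cells.

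The members and gene lists were chosen with earlier results of these data known. Named genes were the up to 10 called in each direction with the most extreme pair share, averaging 50 CPM or more and detected in 50% or more of the higher side's cells, called genes of the stress lists, the 2 most abundant and up to 4 called members of each other list, and the 5 most like Ddit3 by Spearman rho. One gene the rule named is not reported here. Others are said to be chosen after their values were seen or illustrate a list. Counts were rounded for exact Poisson intervals at the 95% level and for thinning, and such limits cover counting error only. The pseudocount was 1 CPM. mRNA lengths came by symbol from GENCODE M21, for 97.0% of the genes tested. Each was the median over a gene's protein-coding transcripts, or over all its transcripts where none was protein-coding. Control and treated files held 40202 genes each, and 0 kept libraries were identical. TMM (edgeR 4.0.16) and DESeq2 1.42.0 factors in R 4.3.3 served as alternative scalings. The rest used Python 3.11.15, numpy 2.4.6, pandas 2.3.3 and scipy 1.17.1.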

Additional observations from a re-analysis of the deposited data

Results flagged for a closer look

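Libraries below the filter on counts and genes enter no comparison, yet they held Ddit3 counts. The 11 RO-3306 libraries left out had 1162603 counts in all and 17 Ddit3 counts in 5 libraries, or 14.6 CPM (exact Poisson 95% interval 8.52 to 23.4). Of these counts, 10 came from library B8. The 19 control libraries left out had 0 Ddit3 counts in 341166, which allows up to 8.79 CPM. The level in the treated libraries left out is below that of 36 of the 37 kept treated cells.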

How the results depend on the processing

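No paired analysis was possible because the sides come from ranking the cells of 1 treatment and no label ties a cell of one side to a cell of the other, so within-set ratios were given instead. In all, 107 results were recomputed, giving 1774 values, of which 70 moved beyond their spread or limit and 0 reversed a call. Pair shares of sums could not move under other scalings, nor list or gene results under ranking on nuclear-coded counts, which kept the same cells. List medians that changed sign were not counted as reversed. Pair-share limits treat the 144 pairs as independent although they come from 24 cells, so these counts do not measure stability. Genes called higher, 16 as reported, were 37 with 9 cells a side and 4 with 18, 32 with TMM, 33 with DESeq2, 7 at 50 CPM or more, 51, 63, 81 and 40 without sets A, B, C and D, 43 without cells A11, B3 and C11, and 11 (without B11) to 33 (without C11) leaving out each cell. Genes called lower, 325 as reported, were 90 with 18 cells a side, 110 at 50 CPM or more, 859 without set A, 500 without set B and 288 to 415 leaving out each cell. The stress response pair share was 60.5% with 9 cells a side and 64.3% without set B. The amino acid median was -0.49 with 9 cells a side, -0.084 as a mean over cells, -0.065 after thinning, 0.23 with TMM, 0.25 with DESeq2, 0.21 at 50 CPM or more, 0.24 without cells above 20% mitochondrial counts, -0.28 without set B, 0.32 after length correction and -0.37 to 0.20 leaving out each cell. The NRF2 pair share was 91.7% without cells above 20% mitochondrial counts, 90.9% without A11, B3 and C11 and 83.3% to 92.4% leaving out each cell. The heat shock pair share was 30.6% ranked on thinned counts, 31.5% without set A, 12.9% without set B and 12.9% to 21.2% leaving out each cell. The S-phase pair share was 27.2% with 18 cells a side, 27.1% without set B, 10.9% without set D and as low as 12.9% leaving out D6. Smaller sides and fewer tested genes are part of the alternatives on side size, sets and 50 CPM by construction, and the cause of the other shifts was not tested. Depth is least in the 3 cells that thinning left out.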

Other observations

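The other genes called higher in Ddit3-high cells were chosen for mention after their values were seen. Pik3ip1, an inhibitor of PI3-kinase, had pooled levels of 30.2 CPM in high and 1.26 CPM in low cells and a pair share of 79.2%. Dnajc4, a DnaJ-domain protein, had 81.0 and 13.2 CPM and a pair share of 77.8%. Ptpn14, a tyrosine phosphatase, had 40.3 and 7.63 CPM, and Nfia, a transcription factor, had 13.8 and 1.03 CPM. Avil, an actin-binding protein, had 63.0 and 27.9 CPM. Dapp1 and Dcaf15 had 19.5 and 11.9 CPM in high cells and no count in low cells.

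Cav1, the caveolin of membrane pits, led the alveolar type I markers. It had 0 to 771 CPM in high cells (median 319) and 10.1 to 3297 CPM in low cells (median 782), with a log2 ratio of -2.51 and a ratio below 0 in all 4 sets. Its pair share of 25.7% was short of a call. Dcn, a matrix proteoglycan, led the fibroblast markers, with medians of 317 and 1171 CPM, a log2 ratio of -1.07 and a rho with Ddit3 of -0.52 over 37 cells. Both had fractional counts in over 25% of libraries.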
